A study of Gallus gallus with 9 samples.

Results

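The genes described here lie on chromosome Z of the chicken and were expressed in the thymus, where T cells mature. They were chosen as the Ensembl gene models on Z with at least 1 FPKM in at least 3 of 9 libraries, where FPKM is the number of sequenced fragments scaled to gene length and library depth. In all, 580 of the 25016 genes in the deposited table met this rule. RNA came from whole thymus of ROSS 308 broiler chicks aged 21 days, in 3 groups of 3 libraries. CON chicks were kept on the basic diet, LPS chicks were treated with lipopolysaccharide, a bacterial outer-membrane component that provokes an innate immune response, and GEN chicks were given lipopolysaccharide with genistein, an isoflavone of soy. Doses, routes, sex and the identity of single birds are not given in the labels, so a p-value refers only to the spread among these samples, some of which may be technical. The libraries are bulk tissue, in which a change in the number of cells of a type and a change in RNA per cell cannot be told apart.

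Z is the large sex chromosome of birds. Cocks carry a pair of Z chromosomes, and hens carry a Z and a small W. Unlike X in mammals, Z is not silenced as a whole in the sex with the pair, and dosage compensation in the chicken is partial and differs from gene to gene. Genes of W are transcribed only in hens. The sources used here pair none of the identifiers with a gene name, so members carry their Ensembl identifier and their position on the build named in the submitters' notes (GRCg6a), and no function is assigned to them. Marker genes of the thymus could not be looked up for the same reason, and the tissue label was not checked against them.

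Transcripts of W were close to absent in all 9 libraries. Of 126 genes listed on W, 0 passed the filter that defined the Z members. All W genes together held 76, 77 and 91 fragments in CON 1, CON 2 and CON 3, 93, 97 and 93 in the LPS libraries, and 81, 98 and 102 in the GEN libraries, out of 19618047 to 25863282 gene fragments per library. The shares were 0.00032% to 0.0005% of fragments, with 95% Wilson intervals that together ran from 0.000256% to 0.000609% and cover counting error only. A single gene, ENSGALG00000047434 (W, 3570685 to 3580610), singled out after its values were seen, gave 47 to 86 of these fragments in each library and measured 0.638 to 0.881 FPKM. Every CON library had fewer W fragments than every LPS library, while the shares of the 3 groups overlapped. Outside this gene, W held 44 fragments in CON 3 and 10 to 25 in the others. No sex was assigned to any library.

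CON 3 stood apart from the other 8 libraries. Across the 580 members its log2(FPKM + 1) values correlated with those of the other libraries at 0.856 to 0.88, while the other pairs gave 0.956 to 0.986. Mitochondrial genes took 3.94% of its fragments and 1.43% to 1.93% elsewhere. CON 3 was the lowest of the 9 libraries for 253 members (43.6%, beside 41.5% of genes of chromosomes 1 to 10). It was the highest for 153 (26.4%, beside 29.9%). On the log2(FPKM + 1) scale CON 3 lay more than 1 below the mean of the others for 118 members and more than 1 above it for 34. These 2 counts were not made for other genes, so whether they are particular to Z is not known. Members over 4000 bases lay lower in CON 3 than in the mean of the others by a median difference of -0.42 on the log2 scale, while members of 1000 to 2000 bases differed by 0.03. The genes of chromosomes 1 to 10 gave -0.39 and 0.16 for the same lengths. At 2000 to 4000 bases the values were -0.20 on Z and -0.16 on these chromosomes. Shorter genes differed more: 0.11 on Z against -0.57 under 300 bases, and 0.01 against 0.35 at 300 to 1000 bases. An extreme case, chosen after its values were seen, was ENSGALG00000005821 (7677351 to 7715763), which had 0 fragments in CON 3 and 134 to 196 fragments in each of the other libraries. The log2 fold changes, tests and main counts that involve CON are therefore given with and without this library. Some values, such as ratios of mean FPKM, are given with it only.

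The members span Z from 431 to 82223072. They make up 46.6% of the 1245 Ensembl genes on Z, against 46.6% to 58.8% on chromosomes 1 to 10, and 249 of the Z genes had no fragment in any library. A further 16 genes predicted by the submitters passed the filter on Z but are not members. The filter falls among continuous values: just inside it, the third highest library measured 1.01 FPKM for ENSGALG00000054698, and just outside it 0.992 FPKM for ENSGALG00000012583. In all 9 libraries at least 1 FPKM was found for 500 members, and 9 members reached it in exactly 3 libraries. There were 282 members on the plus strand and 298 on the minus strand. The median length was 2373 bases, against 2352 on chromosomes 1 to 10. Another gene model overlapped 126 members, on the other strand for 68, and without a known strand setting the fragments of such pairs cannot be told apart.

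The level of Z members in thymus was close to that of genes on the large autosomes that passed the same filter. The mean FPKM over the 9 libraries had a median of 10.4 over Z members, with quartiles of 4.29 and 22.7, and a median of 10.6 over the 7382 genes of chromosomes 1 to 10, with quartiles of 3.65 and 24.9. In the order of medians over these 11 chromosomes Z stood in place 8, between chromosome 4 at 10.5 FPKM and chromosome 1 at 9.95. The ends of the order were chromosome 9 at 13.6 FPKM and chromosome 2 at 9.61. These are levels per length, and the quartiles of all 11 chromosomes overlap widely.

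Within single libraries, the ratio of the Z median to the median of chromosomes 1 to 10 was 0.918, 0.908 and 0.923 in CON, 0.932, 0.971 and 1.04 in LPS, and 0.967, 1.04 and 0.992 in GEN. On the log2(FPKM + 1) scale the difference of medians was -0.11 ± 0.012 in CON, -0.03 ± 0.070 in LPS and -0.00070 ± 0.049 in GEN (SD, n = 3 each). Every CON library lay below every LPS library and every GEN library, while LPS and GEN overlapped. With only genes of at least 5 FPKM in 3 libraries, CON and LPS overlapped. The step from CON 3, the highest CON library, to LPS 1, the lowest LPS library, was from -0.10 to -0.09. Set beside CON, the group mean was higher by 0.09 in LPS and by 0.11 in GEN, and by 0.09 and 0.12 without CON 3. The same quantity for each of chromosomes 1 to 10, against the other 9 of them, differed between GEN and CON by -0.13 to 0.07. Without CON 3 it differed by -0.059 to 0.046. Between LPS and CON it differed by -0.090 to 0.058, and by -0.020 to 0.079 without CON 3. No test was made of this score over the members. The small SD of CON did not hold under every setting. With means in place of medians, CON 1, CON 2 and CON 3 gave -0.0455, -0.0456 and -0.113. Genes of 1000 to 4000 bases gave -0.081, -0.102 and -0.186. The median log2 fold change of single genes is another measure. Without CON 3 it was 0.01 on Z and -0.01 on chromosomes 1 to 10 in LPS vs CON. In GEN vs CON it was 0.06 and -0.0061. In both the gap was smaller than the difference of medians above.

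**Figure D1:**
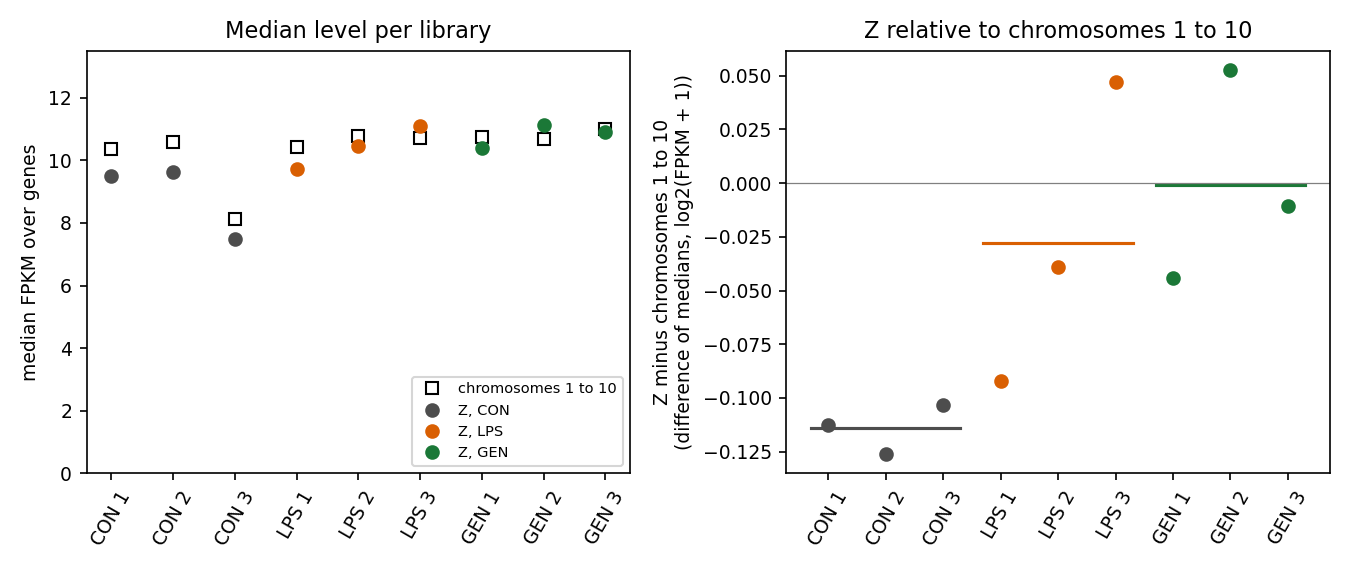
Left, the median FPKM of the 580 Z members (filled circles, by group) and of 7382 genes of chromosomes 1 to 10 (open squares) in each library. Right, the difference of the 2 medians on the log2(FPKM + 1) scale for each library (points) with the group means (lines): the 3 CON libraries lie at -0.13 to -0.10, below the LPS libraries at -0.09 to 0.05 and the GEN libraries at -0.04 to 0.05.

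Z members took 3.26% of all gene fragments in CON 3 (95% Wilson interval 3.25% to 3.27%) and 3.64% to 4.02% in the other libraries, the highest in GEN 2. A few abundant transcripts made up much of this. The 5 members with the highest mean FPKM were ENSGALG00000015082 (33736390 to 33740880), ENSGALG00000015617 (63563409 to 63565254), ENSGALG00000036774 (1077920 to 1081538), ENSGALG00000026300 (81753560 to 81755457) and ENSGALG00000014833 (12917710 to 12920908). Ranked by fragments in each library, the top 5 members did not include the short ENSGALG00000026300, so they are not the same 5. They took 22.9% to 26.2% of the fragments of Z members in every library except CON 3, where they took 41.9%.

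ENSGALG00000015082 measured 4502, 4172 and 5837 FPKM in CON, 4264, 4046 and 4077 in LPS, and 3580, 3850 and 3781 in GEN. Every GEN library lay below every CON and LPS library. ENSGALG00000015617 measured 3588 and 3726 FPKM in CON 1 and CON 2, 8102 in CON 3, and 3070 to 3597 in the other 6 libraries. ENSGALG00000036774 measured 1616, 1816 and 4564 FPKM in CON, 1457 to 1590 in LPS and 1376 to 1450 in GEN, and 5 other gene models overlap its span. ENSGALG00000026300, a model of 168 bases, measured 1277, 1077 and 1554 FPKM in CON, 1127, 919 and 1063 in LPS, and 986, 809 and 795 in GEN. ENSGALG00000014833 measured 927, 1011 and 2332 FPKM in CON, 806 to 947 in LPS and 816 to 849 in GEN. Of these 5, ENSGALG00000015617, ENSGALG00000036774 and ENSGALG00000014833 were more than 2-fold higher in CON 3 than in CON 1 and CON 2, and ENSGALG00000015082 and ENSGALG00000026300 were not.

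Most members varied little between libraries once CON 3 was set aside. The range of log2(FPKM + 1) over the 9 libraries exceeded 1 for 259 members (44.7%, against 47.5% of genes of chromosomes 1 to 10), and over the 8 libraries without CON 3 for 75 (12.9%, against 15.9%). The median SD over libraries was 0.29 with and 0.17 without CON 3, and 0.30 and 0.18 on chromosomes 1 to 10. The widest range, 5.05, belonged to ENSGALG00000025945, and the next, 4.07, to ENSGALG00000015425 (54612204 to 54628981). ENSGALG00000015425 measured 7.62, 1.82 and 9.21 FPKM in CON, 46.4, 9.50 and 3.82 in LPS, and 20.9, 3.64 and 7.90 in GEN. Its high values were those of LPS 1 and GEN 1, and the groups overlapped. The other 3 of the 5 widest, ENSGALG00000025595, ENSGALG00000052213 and ENSGALG00000025433, had their lowest value in CON 3 (0, 0.693 and 0 FPKM), and their ranges were 3.98, 3.90 and 3.75 with it and 1.59, 0.76 and 1.74 without it. ENSGALG00000025595 and ENSGALG00000025433 are models of 63 and 74 bases with at most 22 and 23 fragments in a library. At the ends of the chromosome, the first member, ENSGALG00000055022 (431 to 31487), measured 3.52 to 7.15 FPKM over the 9 libraries. The last member, ENSGALG00000016438 (82200619 to 82223072), measured 23.7, 25.4 and 32.9 FPKM in CON, 19.1, 21.1 and 20.6 in LPS, and 27.5, 28.3 and 27.7 in GEN, with every LPS library below every other library.

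LPS was set against CON to ask which transcripts differed after lipopolysaccharide. Its most uneven Z member was ENSGALG00000025945 (9164659 to 9166088, plus strand). It measured 9.27, 5.45 and 8.05 FPKM in CON, 212, 48.8 and 38.4 in LPS, and 102, 28.3 and 50.3 in GEN, from 170 to 280 fragments in a CON library and 810 to 7627 in the others. All 6 libraries of treated chicks lay above the 3 CON libraries, and LPS and GEN overlapped. The mean was 13.1-fold higher in LPS than in CON, and LPS 1 carried much of it: the log2 fold change of 3.15 (SE 0.65) was 2.39 (SE 0.48) without that library. Its limma p adjusted over all genes was 0.637.

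ENSGALG00000026768 (50341879 to 50367907) passed the filter of 1 FPKM only through the treated libraries, where it was higher, so a difference from CON was built into its selection. It was low throughout, at 0.650, 0.662 and 0.690 FPKM in CON, 1.42, 1.87 and 1.76 in LPS, and 1.40, 1.08 and 1.58 in GEN. Here too all treated libraries lay above CON, with 26 to 39 fragments in a CON library and 55 to 107 in the others. The members lower in LPS with the lowest p were a pair of neighbours on opposite strands whose models overlap by their ends, so their fragments may not be separate. ENSGALG00000014960 (23821153 to 23844219, plus strand) measured 18.6, 19.1 and 21.8 FPKM in CON, 13.2, 16.2 and 14.3 in LPS, and 22.0, 18.02 and 17.2 in GEN. ENSGALG00000014958 (23843817 to 23867162, minus strand) measured 4.67, 3.93 and 5.57 FPKM in CON, 2.40, 3.34 and 3.17 in LPS, and 3.79, 3.97 and 4.55 in GEN. In both, every LPS library lay below every CON and every GEN library. The log2 fold changes were 0.68 (SE 0.16), -0.42 (SE 0.14) and -0.53 (SE 0.17) in this order, each with a limma adjusted p of 0.637. Without CON 3 the log2 fold changes of ENSGALG00000025945, ENSGALG00000026768, ENSGALG00000014960 and ENSGALG00000014958 were 3.20, 0.69, -0.35 and -0.42. The limma adjusted p was then 0.604, 0.674, 0.795 and 0.818 in this order.

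No member passed the test in LPS vs CON: limma called 0 of 580, as it called 0% of all 13506 genes, and 0 members were called by limma-voom run on recovered fragments. At an unadjusted p under 0.05, limma gave 30 members, 23 higher and 7 lower in LPS (3.97% and 1.21%), beside 4.52% of all genes tested (2.45% and 2.07%). From limma-voom the counts were 21 and 6, beside 2.22% and 1.85% of all genes. The split depended on scaling: the counts were 36 and 2 when each library's fragment sum set the scale, beside 3.86% and 0.777% of all genes. They were 11 and 12 with quantile normalization, beside 1.67% and 2.5%, and 11 and 10 with chromosomes 1 to 10 set to one median, beside 1.66% and 2.73%. The groups did not overlap for 78 members, 43 higher and 35 lower (7.41% and 6.03%), beside 12.2% of all genes (5.47% and 6.76%). Without CON 3 these counts were 65 and 74 (11.2% and 12.8%), beside 9.68% and 12.4% of all genes. The median log2 fold change was 0.09 over the members, 0.04 over chromosomes 1 to 10 and 0.00080 over all genes. Without CON 3 these medians were 0.01, -0.01 and -0.0054, and the unadjusted counts 18 higher and 16 lower, beside 5.82% of all genes (2.67% and 3.15%). The higher count was 43 without CON 2 and 13 without LPS 2 (7.41% and 2.24%), beside 5.86% and 1.6% of all genes. Lower members numbered 20 when CON 1 was left out and 21 when CON 2 was (3.45% and 3.62%), beside 4.88% and 5.75% of all genes. They numbered 3, 4 and 2 without LPS 1, LPS 2 and LPS 3 in turn (0.517%, 0.69% and 0.345%). The shares of all genes were then 1.42%, 1.14% and 0.97%. On leaving out GEN 1 or GEN 2 they numbered 4 (0.69%), beside 1.44% and 1.46% of all genes.

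Between GEN and LPS the question is what differed when genistein was added to lipopolysaccharide. The member with the lowest p was ENSGALG00000025677 (33591936 to 33592065), a short model of 130 bases that another model on the same strand overlaps. It measured 6.51, 4.70 and 3.92 FPKM in CON, 5.47, 6.50 and 5.78 in LPS, and 11.9, 10.1 and 13.2 in GEN. These values rest on 28 to 43 fragments in a GEN library and 8 to 20 in the others. Every GEN library lay above all 6 other libraries. The mean was 1.98-fold that of LPS and 2.33-fold that of CON.

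ENSGALG00000014807 (22058070 to 22068952) measured 6.17, 4.87 and 5.72 FPKM in CON, 4.14, 4.003 and 4.55 in LPS, and 6.39, 6.39 and 5.80 in GEN, with every LPS library below every other. Of the members lower in GEN, ENSGALG00000048320 (44911227 to 44917010) measured 55.2, 46.4 and 64.7 FPKM in CON, 51.0, 50.5 and 44.9 in LPS, and 39.8, 34.4 and 31.3 in GEN, so that every GEN library lay below all others. ENSGALG00000027483 (57547979 to 57556623) measured 61.6, 50.5 and 70.2 FPKM in CON, 52.6, 66.7 and 67.9 in LPS, and 46.0, 51.3 and 39.0 in GEN. Its GEN and LPS libraries did not overlap, while CON 2 lay within the GEN range. The log2 fold changes of the 4 genes were 0.88 (SE 0.19), 0.46 (SE 0.14), -0.47 (SE 0.15) and -0.45 (SE 0.17) in GEN vs LPS, each with a limma adjusted p of 1.0, and of 0.238, 0.292, 0.292 and 0.300 without CON 3.

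**Figure D2:**
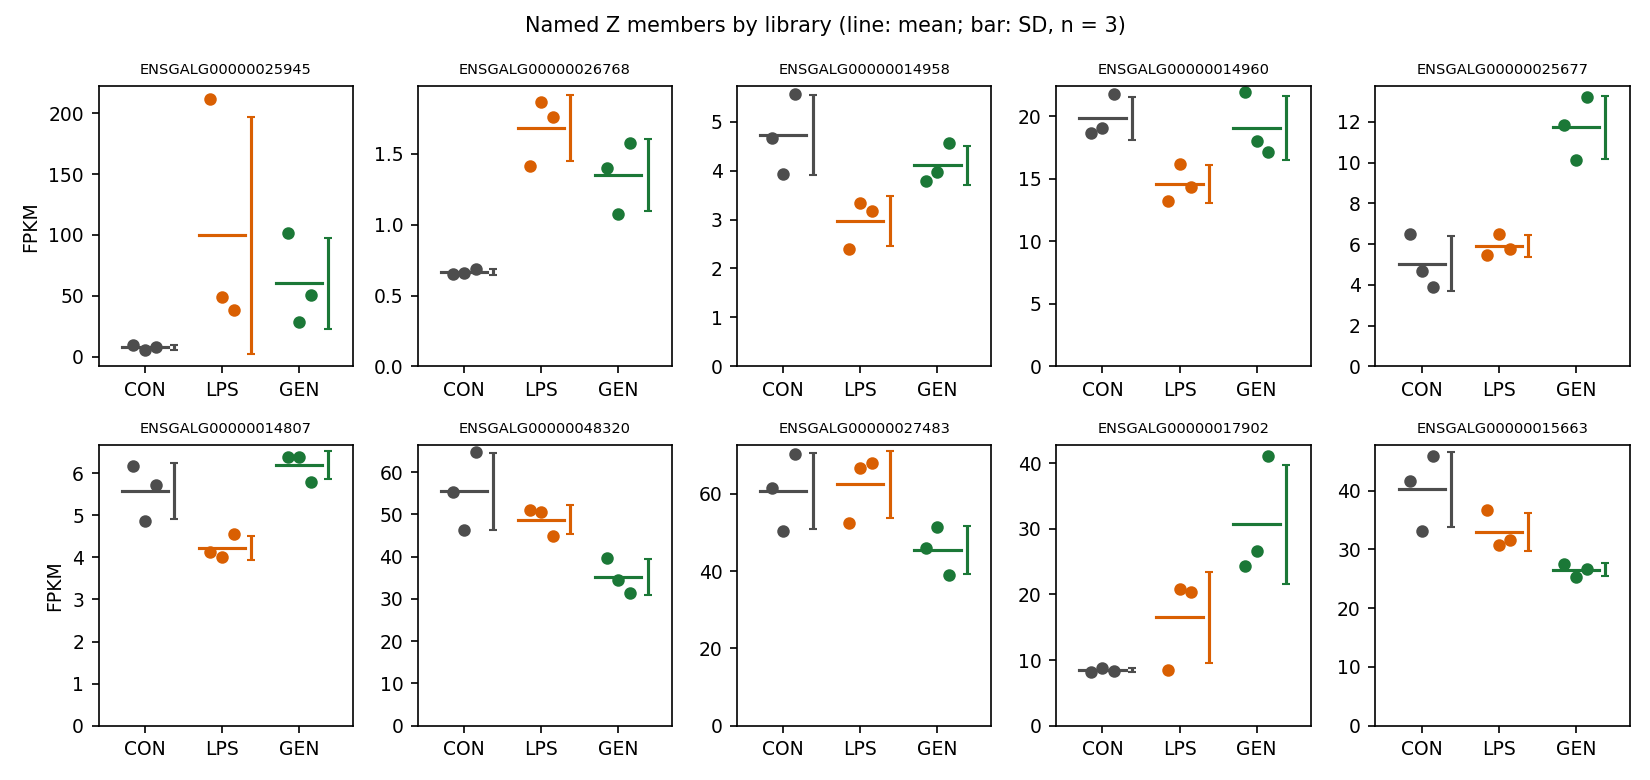
FPKM of the 10 Z members named by lowest p in the 3 comparisons, each point a library, with the group mean (line) and SD (bar, n = 3). ENSGALG00000025945 and ENSGALG00000026768 are low in all CON libraries, and ENSGALG00000025677 is high in all GEN libraries at 10.1 to 13.2 FPKM.

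In GEN vs LPS limma called 0 of 580 members, beside 0% of all genes, and limma-voom called 0. At an unadjusted p under 0.05 there were 14 members, 11 higher and 3 lower in GEN (1.90% and 0.517%), beside 3.24% of all genes (1.74% and 1.5%). From limma-voom the counts were 13 and 3, beside 1.99% and 1.59% of all genes. The split was 15 and 2 when scaled by fragment sum, beside 2.14% and 1.35% of all genes, 18 and 4 with quantile normalization, beside 2.3% and 1.98%, and 8 and 0 with chromosomes 1 to 10 at one median, beside 1.11% and 1.25%. The groups did not overlap for 117 members, 79 higher and 38 lower (13.6% and 6.55%), beside 20.2% of all genes (8.91% and 11.3%), and 10.2% and 9.78% of chromosomes 1 to 10. CON 3 bears on this comparison through the pooled variance and through the filter, which counts all 9 libraries. The genes tested were kept the same when CON 3 was left out. Without CON 3 the unadjusted counts were 61 higher and 22 lower (10.5% and 3.79%), beside 13.7% of all genes (6.32% and 7.37%) and 7.02% and 6% of chromosomes 1 to 10. The higher count was 6 without LPS 1, 7 without GEN 2 and 6 without GEN 3 (1.03%, 1.21% and 1.03%). The shares of all genes were then 0.822%, 1.22% and 0.866%. The lower count was 1 without GEN 3 (0.172%), beside 0.874% of all genes. The median log2 fold change was 0.04 over the members, 0.0052 over chromosomes 1 to 10 and -0.02 over all genes. The Z level relative to chromosomes 1 to 10 was higher by 0.03 in GEN than in LPS, a difference of medians that turned to -0.0049 without LPS 1 and was 0.00051 without GEN 2.

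The last comparison sets GEN, given both agents, against CON. It shares its libraries with both other comparisons, so its values are not independent of theirs. ENSGALG00000025677, described above, had the lowest p of all members here too. ENSGALG00000017902 (45788049 to 45788223), a model of 175 bases that another model on the same strand overlaps, measured 8.15, 8.84 and 8.37 FPKM in CON, 8.55, 20.8 and 20.3 in LPS, and 24.3, 26.6 and 41.1 in GEN. It had 23 to 38 fragments in a CON library and 91 to 180 in a GEN library, its mean was 3.62-fold higher in GEN than in CON, and every GEN library lay above all others. LPS 1 lay at the CON level and LPS 2 and LPS 3 between CON and GEN.

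Among members with lower values in GEN than in CON, ENSGALG00000048320 had the lowest p; its values stand above, and its GEN mean was 0.634 times that of CON. ENSGALG00000015663 (66228725 to 66241158) measured 41.6, 33.2 and 45.8 FPKM in CON, 36.7, 30.7 and 31.7 in LPS, and 27.6, 25.4 and 26.7 in GEN. Every GEN library lay below all others, and LPS and CON overlapped. The log2 fold changes were 1.09 (SE 0.19) for ENSGALG00000025677, 1.71 (SE 0.33) for ENSGALG00000017902, -0.64 (SE 0.15) for ENSGALG00000048320 and -0.57 (SE 0.14) for ENSGALG00000015663. Without CON 3 these fold changes were 0.95, 1.70, -0.52 and -0.47 in the same order. The limma adjusted p was 0.349, 0.438, 0.452 and 0.452 with all libraries, and 0.163, 0.221, 0.231 and 0.231 without CON 3.

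In GEN vs CON more Z members lay higher in GEN than lower. limma called 0 of 580 members, beside 0% of all genes, and limma-voom called 0. At an unadjusted p under 0.05 there were 78 members, 59 higher and 19 lower (10.2% and 3.28%), beside 10.8% of all genes (4.68% and 6.12%) and 5.45% and 4.88% of chromosomes 1 to 10. From limma-voom the counts were 56 and 19, beside 4.31% and 5.56% of all genes. The split was 97 and 4 when scaled by fragment sum (16.7% and 0.69%), beside 8.4% and 2.44% of all genes. It was 50 and 19 with quantile normalization (8.62% and 3.28%), beside 4.18% and 5.92%. With chromosomes 1 to 10 at one median it was 31 and 28 (5.34% and 4.83%), beside 2.81% and 8.68%. The groups did not overlap for 145 members, 94 higher and 51 lower (16.2% and 8.79%), beside 21.1% of all genes (8.83% and 12.3%). Without CON 3 these counts were 130 and 82 (22.4% and 14.1%), beside 15.6% and 20.4% of all genes. Among chromosomes 1 to 10 the share higher was 7.31% to 14.2%, with chromosome 4 at the top, and the share lower was 7.62% to 11.3%. The fold change was above 0 for 383 members (66.0%), against 57.0% on chromosomes 1 to 10 and 50.8% of all genes. Without CON 3 these shares were 62.2%, 49.0% and 47.1%. The share of members was 51.6% with chromosomes 1 to 10 at one median, against 42.0% on those chromosomes, and 82.1% when scaled by fragment sum, against 74.6%.

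The median log2 fold change in GEN vs CON was 0.16 over the members, 0.06 over chromosomes 1 to 10 and 0.0084 over all genes. With chromosomes 1 to 10 at one median these were 0.0149, -0.08 and -0.14, and when scaled by fragment sum 0.31, 0.23 and 0.18. Without CON 3 the medians were 0.06, -0.0061 and -0.02, and 64 members were higher and 34 lower at an unadjusted p under 0.05 (11% and 5.86%), beside 15.9% of all genes (6.57% and 9.36%). The higher count was 98 without CON 2, 32 without GEN 2 and 29 without GEN 3 (16.9%, 5.52% and 5%). The shares of all genes were then 8.76%, 2.98% and 2.44%. The lower count was 31 without CON 1, 36 without CON 2, 7 without GEN 2 and 8 without GEN 3. These were 5.34%, 6.21%, 1.21% and 1.38% of members, beside 8.35%, 11.1%, 2.64% and 2.58% of all genes. When libraries were weighted by estimated quality, which gave CON 3 a weight of 0.0491, limma called 2 members, ENSGALG00000017902 and ENSGALG00000025677, with adjusted p of 0.0485 and 0.0494. Under these weights it called 0.345% of members and 0.4% of all genes.

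**Figure D3:**
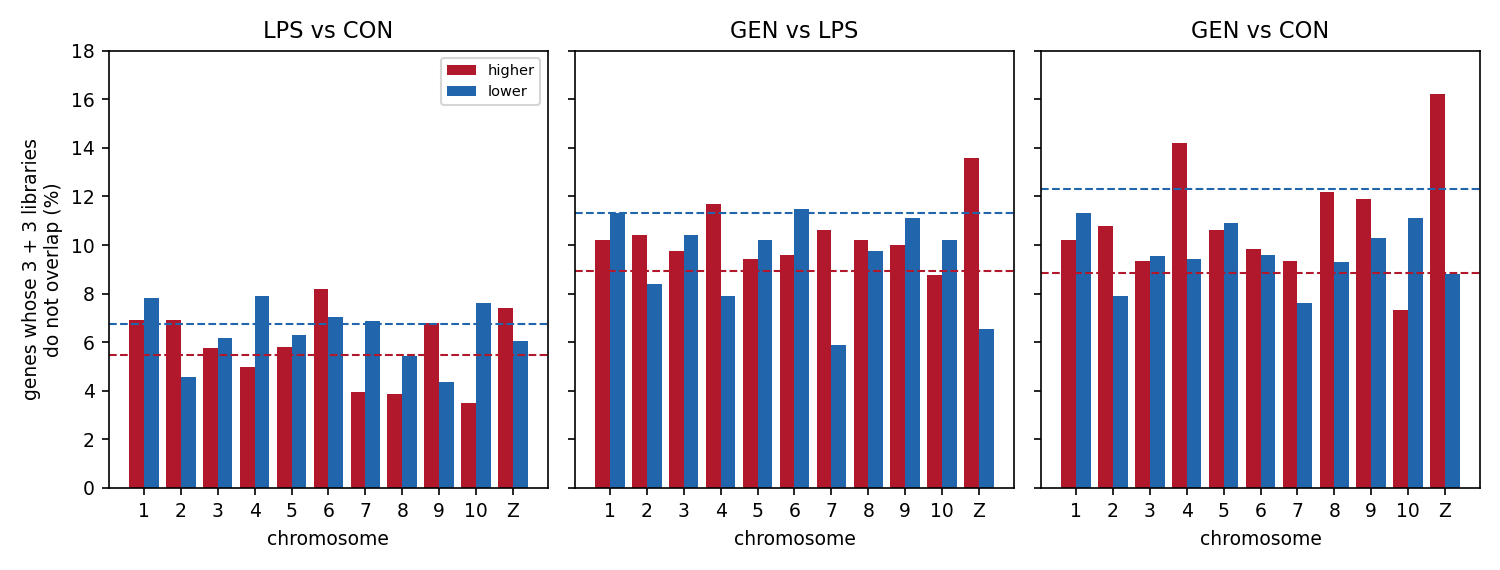
Share of genes on each chromosome whose libraries do not overlap between the 2 groups compared, higher (red) or lower (blue) in the group named first. Dashed lines give the same shares over all 13506 genes. In GEN vs CON, Z stands at 16.2% higher and 8.79% lower, and in GEN vs LPS at 13.6% and 6.55%.

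These fold changes differed between classes of gene length and level, on Z and on chromosomes 1 to 10. In GEN vs CON, the 113 members over 4000 bases had a median log2 fold change of 0.295, the 239 of 2000 to 4000 bases 0.16, the 153 of 1000 to 2000 bases 0.03 and the 75 shorter ones 0.11. The medians on chromosomes 1 to 10 in these classes were 0.20, 0.07, -0.05 and 0.02. Without CON 3 the Z medians were 0.12, 0.08, -0.01 and 0.07, and those of chromosomes 1 to 10 were 0.05, -0.01, -0.04 and -0.01. By level, the 169 members with a mean under 5 FPKM gave 0.23. Those of 5 to 10, 10 to 25 and at least 25 FPKM gave 0.29, 0.18 and 0.00046. On chromosomes 1 to 10 the medians were 0.14, 0.12, 0.08 and -0.09, so the highest class was not the same. Without CON 3 the Z medians by level were 0.165, 0.086, 0.057 and -0.046. Those of chromosomes 1 to 10 were then 0.066, 0.033, -0.003 and -0.085. In each of these classes the Z median was the higher of the pair, with and without CON 3. The part of length or level in the difference between the groups was not tested beyond these classes.

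Along the chromosome the fold changes were not even. The members were counted in 17 windows of 5 Mb by the start of the gene, with 8 members in the sparsest window (75 to 80 Mb) and 63 in the densest (5 to 10 Mb). In GEN vs CON the median log2 fold change was above 0 in 14 windows, and in 15 without CON 3. In 9 windows, all between 10 and 65 Mb, the median deviation of every GEN library lay above that of every CON library, and in 0 windows the reverse held. The window from 30 to 35 Mb gave the highest median, 0.33, with 27 of its 30 members above 0, 11 not overlapping higher and 1 lower (36.7% and 3.33%), beside 8.83% and 12.3% of all genes. It was also the window with the lowest median level, 4.23 FPKM, and the one in which CON 3 lay farthest below the other libraries, by a median of -0.62. Without CON 3 its median was 0.19, still the highest of the 17, and 11 members did not overlap higher and 3 lower (36.7% and 10%), beside 15.6% and 20.4% of all genes. The windows named here and below were singled out after their fold changes were seen. Their counts rest on the same values and are no separate support. No windows of chromosomes 1 to 10 were set beside them.

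The window from 5 to 10 Mb went the other way. Its median was -0.07 with and without CON 3, with 28 of 63 members above 0, and 14 members did not overlap lower in GEN against 4 higher (22.2% and 6.35%, beside 12.3% and 8.83% of all genes). Without CON 3, 18 were lower and 8 higher (28.6% and 12.7%, beside 20.4% and 15.6%). In the next window, from 10 to 15 Mb, the median was 0.25, or 0.14 without CON 3, with 11 members not overlapping higher and 4 lower (25% and 9.09%), and 15 and 5 without CON 3 (34.1% and 11.4%). The far end, from 80 to 85 Mb, gave -0.08 with CON 3 and 0.11 without it over 21 members. In GEN vs LPS, whose fold changes do not use CON, the window from 5 to 10 Mb gave the lowest median, -0.10 with 19 of 63 members above 0, and the window from 30 to 35 Mb the highest, 0.17 with 25 of 30. In LPS vs CON the medians lay between -0.09 and 0.21 over the 17 windows, and without CON 3 between -0.04 and 0.06. Neighbouring members had the same sign of fold change in GEN vs CON in 60.3% of 579 adjacent pairs, and on chromosomes 1 to 10 in 54.3% to 58.4%. Without CON 3 the share was 56.1%, within the 51.6% to 62.5% of those chromosomes. It also lay within their range in LPS vs CON (53.9%, against 48.6% to 56.6%) and in GEN vs LPS (60.3%, against 54.5% to 64.8%). Adjacent genes can share fragments where their models overlap, and a shifted median alone raises such a share.

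**Figure D4:**
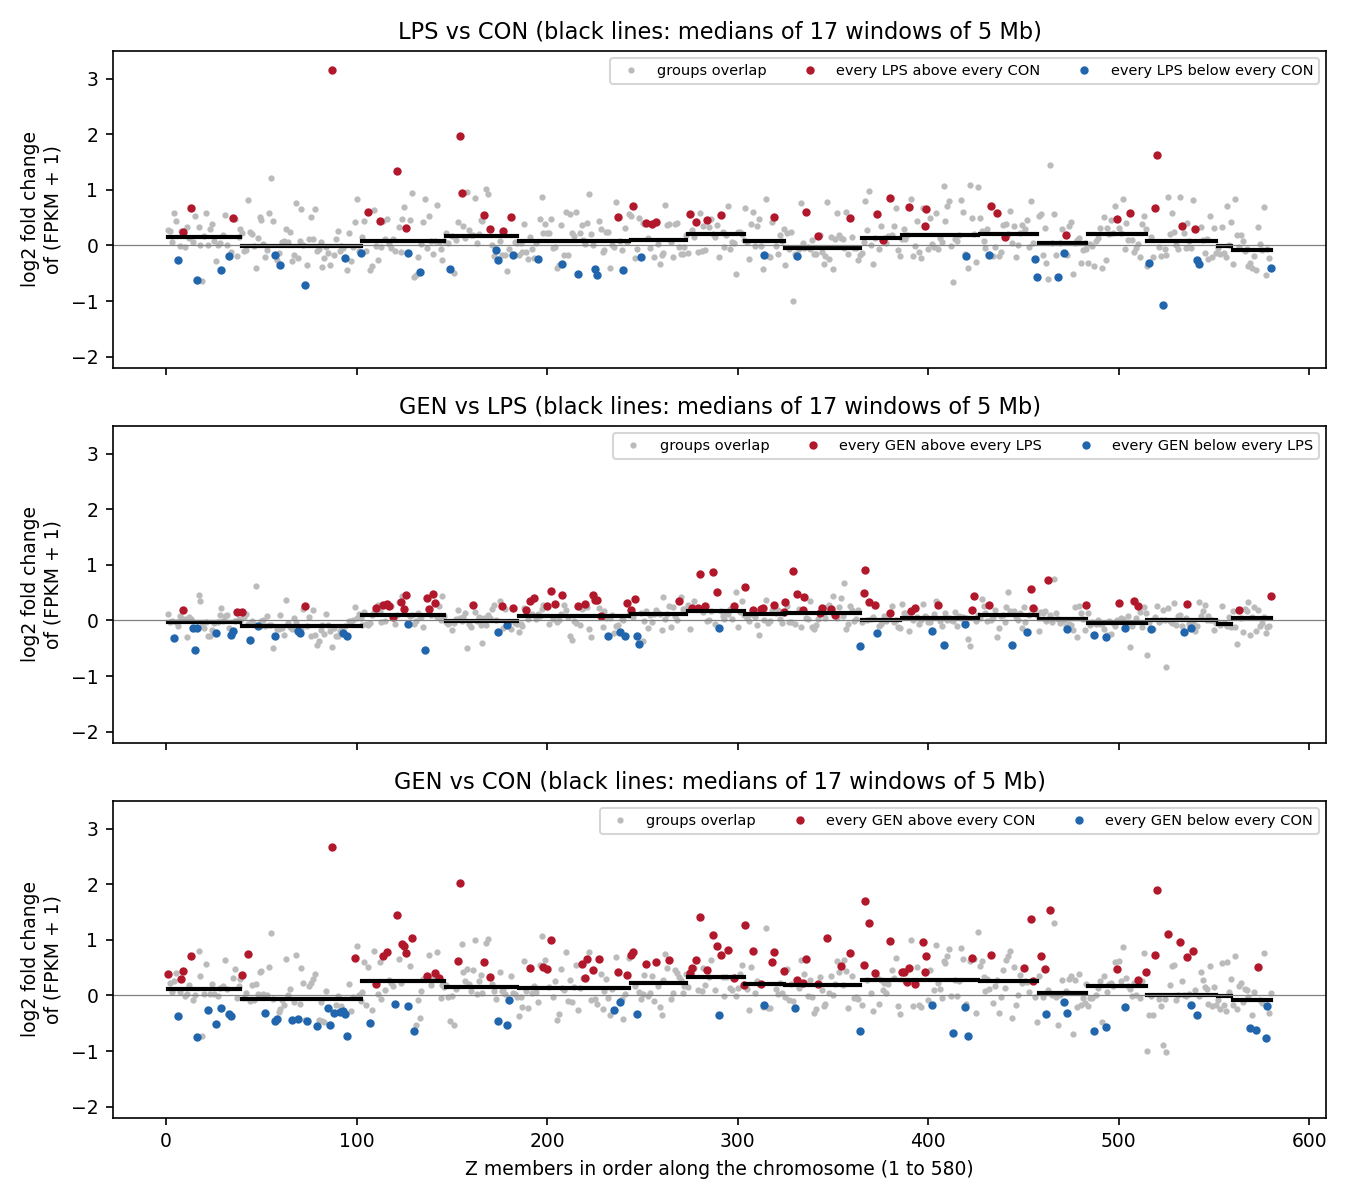
Log2 fold change of (FPKM + 1) of each of the 580 Z members in order along the chromosome, for the 3 comparisons. Coloured points are members whose libraries do not overlap between the groups, and black lines are the medians of 17 windows of 5 Mb, which in GEN vs CON run from -0.08 to 0.33.

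Considering all 3 groups at once, 39 members had every GEN library above all 6 others (6.72%, beside 3.14% of all genes) and 21 had every GEN library below them (3.62%, beside 4.62%). Without CON 3 these numbers were 50 and 31 (8.62% and 5.34%), beside 5.32% and 7.2% of all genes. CON lay below the 6 treated libraries for 28 members (4.83%, beside 1.97%) and above them for 11 (1.9%, beside 3.29%). Without CON 3 this held for 38 and 27 members (6.55% and 4.66%), beside 3.72% and 6.11% of all genes. LPS lay above all others for 2 members (0.345%, beside 1.41%) and below for 9 (1.55%, beside 1.29%), and without CON 3 for 4 and 16 (0.69% and 2.76%), beside 2.34% and 2.4%. Members in which every library kept the order CON, LPS, GEN from lowest to highest numbered 4, and the reverse order was kept in 4. These 8 stand in both the CON and the GEN counts. The share of all genes that kept either order was not computed.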

How the data were processed

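The authors deposited FPKM values for 25016 genes in 9 libraries, with chromosome, strand, start, end and length per the file headers. CASAVA 1.8, featureCounts 1.5.0-p3 and the build GRCg6a are named per the submitters' processing notes. The table has 0 columns of other samples. No aligner, annotation release or strand setting is given in the labels or headers. In each library the product of FPKM and gene length was a whole multiple of a single step (100% of values within 0.01), which gave back whole fragments per gene. The authors' scaling total was 1.01 to 1.09 times the fragment sum in 8 libraries and 0.767 times in CON 3.

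limma 3.58.1 in R 4.3.3, with a trended prior variance, was fitted to log2(FPKM + 1) of the 13506 genes that reached 1 FPKM in 3 or more libraries. All 9 libraries entered the fit. Its two-sided p-values were Benjamini-Hochberg adjusted across those genes, with a threshold of 0.05. Fold changes on this scale understate those of low genes. An exact test of 3 libraries against 3 cannot go below 0.1, so none was made. limma-voom used the recovered fragments with the authors' totals. The limma procedure was tried on simulated counts with the same spread in every library and none set apart as CON 3 was. That trial does not show how the procedure performs on these libraries. Members, lists and tests were chosen with earlier results of these data known. Named members are the 2 higher and 2 lower with the lowest p per comparison, the 5 highest in mean FPKM, the 5 of widest range, and the first and last along Z. Marker lists by symbol were planned, but the reference table of the GRCg7b assembly paired 0 identifiers with a symbol, so none was tested and no sequence is shown. Within groups, a chi-square of fragments per degree of freedom of 14.9 to 281 (genes of 20 or more fragments per pair) showed more than counting error between any pair. Figures were drawn with matplotlib 3.10.9 in Python 3.11.15.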

Additional observations from a re-analysis of the deposited data

How the results depend on the processing

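The number of members called stayed at 0 under 20 of 20 settings in GEN vs LPS, 20 of 20 in LPS vs CON, and 19 of 20 in GEN vs CON, where library quality weights called 2 (0.345%, beside 0.4% of all genes). Leaving out each library called 0 members in all 3 comparisons. All 240 recomputed log2 fold changes of named members kept their sign, and 2 passed the threshold, both under quality weights. The named members were picked for low p, so the kept signs tell little. Several settings also cannot change a fold change: the filters, no trend, the replicate block and only the 6 libraries compared. The same holds on leaving out a library of the group not compared. The Z level relative to chromosomes 1 to 10 was higher in GEN than in CON by 0.0866 to 0.135 when single libraries were left out, and higher in LPS than in CON by 0.0486 to 0.118. In GEN vs LPS it ranged from -0.00486 (without LPS 1) to 0.0648. A pseudocount of 0.1, filters of 1 FPKM in 6 libraries or 5 FPKM in 3, means in place of medians, genes of 1000 to 4000 bases and chromosomes 1 to 5 alone gave 0.104 to 0.124 in GEN vs CON, 0.0518 to 0.0946 in LPS vs CON and 0.0254 to 0.0545 in GEN vs LPS. These alternatives all kept CON 3 and were not recomputed without it. CON 3 was the lowest CON library with means, with genes of 1000 to 4000 bases and with the filter in 6 libraries. A low CON 3 widens the differences from CON, so these ranges do not show the values without it.

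Setting chromosomes 1 to 10 to one median put the overall median log2 fold change at -0.12 (LPS vs CON) and -0.14 (GEN vs CON). The median over members in LPS vs CON then turned to -0.0375, with chromosomes 1 to 10 at -0.08. This setting multiplies all genes of a library by the same factor. Scaling by the sum of fragments, chosen after seeing the data, put the overall median at 0.16 and 0.18. The splits under these scalings stand beside the counts. Over the 19 settings other than no filter, the median of the members lay above that of chromosomes 1 to 10 in all 3 comparisons. The gap was 0.069 to 0.12 in GEN vs CON, 0.021 to 0.069 in LPS vs CON and 0.018 to 0.054 in GEN vs LPS. Settings that changed only the variance repeated the main medians. With no filter the Z median was the lower in LPS vs CON (0.0178 against 0.0386) and GEN vs CON (0.0367 against 0.0604). It was the higher in GEN vs LPS (0.0110 against 0.0052). There the Z genes were unfiltered and those of chromosomes 1 to 10 filtered, so the sets are unlike. At an unadjusted p under 0.05, members higher and lower in LPS vs CON, GEN vs LPS and GEN vs CON numbered 53 and 29, 51 and 20, and 99 and 43 with quality weights, beside 6.12% and 6.57%, 6.41% and 7.03%, and 10.2% and 12.4% of all genes. Only the 6 libraries compared gave 11 and 3, 56 and 17, and 36 and 7, beside 1.44% and 0.963%, 5.74% and 6.87%, and 3.18% and 2.89%. With no filter, which tests 996 Z genes, the counts were 47 and 9, 25 and 9, and 77 and 21, beside 2.82% and 1.98%, 2.29% and 1.69%, and 4.66% and 4.54%.

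Libraries with the same number deviated from their group means with correlations of -0.1 to 0.34, over 0.1 in 4 of 9 pairs. The highest was that of GEN 1 with LPS 1. With 3 libraries a group and CON 3 apart from the rest, these values cannot settle whether the numbers pair the libraries. With the replicate number as a replicate block 0 members were called in each comparison, and the unadjusted counts were 29 higher and 6 lower, 18 and 1, and 60 and 19, beside 2.87% and 2.15%, 2.22% and 1.75%, and 4.74% and 5.44% of all genes. A W covariate was planned and not run, since 0 W genes passed the filter. The median standard error of a member's log2 fold change was 0.22, which limits what 3 libraries a group can show.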
